A study of Homo sapiens with 9 samples.

Results

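Fatty acid oxidation was followed in undifferentiated Caco-2 (uCaco-2) cells, a human colon adenocarcinoma line, through 31 genes chosen by symbol from the 60591 symbols of the count table. The genes cover the activation of fatty acids, the carnitine shuttle, the mitochondrial and the peroxisomal steps and the regulators PPARA and PPARGC1A. The 3 conditions compared were each measured in 3 biological replicates (9 libraries), namely control cells, cells with 300 μM CoCl2 and cells with 5 μM of an oxyquinoline derivative (OD). All groups, control cells included, received 0.5% DMSO and were lysed after 24 h. Both agents are used as chemical activators of hypoxia-inducible factor (HIF), since they act on the prolyl hydroxylases that mark HIF for degradation. The model is 1 cancer cell line and messenger RNA was measured, not the flux of fatty acids.

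Fatty acids are first joined to coenzyme A by acyl-CoA synthetases. Long chains then enter mitochondria as carnitine esters and are shortened in a cycle of dehydrogenation, hydration, a further dehydrogenation and thiolysis, whose electrons reach the respiratory chain through the electron transfer flavoprotein (ETF) and NADH. Very long and branched chains are shortened in peroxisomes by a parallel set of enzymes, and PPARA is a nuclear receptor that drives many genes of both routes in liver and intestine. Under oxygen shortage cells are known to burn less fat and to store more of it in lipid droplets.

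Library totals were 15998136 to 24209427 counts, and 15944 symbols passed the expression filter and were tested with edgeR (quasi-likelihood F-test) in 1 fit over all 9 libraries, from which every adjusted p below comes. Levels are given as CPM, the count relative to the library size after scaling by TMM factors. These factors correct for the composition of a library and were 0.770 to 0.795 with CoCl2 against 1.11 to 1.15 in the other 6 libraries. Without them the median log2 fold change of all tested genes with CoCl2 was -0.55 in place of -0.049, so small differences with CoCl2 depended on the scaling. The epithelial markers EPCAM, CDH1, KRT8, KRT18, KRT19 and CDX2 were expressed in all groups, whereas CDX1 had no count in any of the 9 libraries. VIL1, which encodes villin of the brush border, was at 613 CPM in the control group, 112 under CoCl2 and 454 under OD, and KRT20 was at 4.49, 1.74 and 5.77 CPM. These 2 were the only epithelial markers lower with CoCl2 by the adjusted p alone, where 42.8% of all tested genes were. The other 6 of the 8 tested were higher, where 40.4% of all were, EPCAM from 738 to 779 CPM in control cells to 958 to 972. All 9 epithelial markers summed to 10810 to 11339 CPM in control cells, 12906 to 13839 with CoCl2 and 10142 to 10698 with OD. The 10 markers of other cell types summed to 16.4 to 20.7 CPM in control cells, 12.2 to 13.6 with CoCl2 and 26.5 to 27.2 with OD, mostly from COL1A1, and PTPRC and DCN had no count in control cells. The part of these shifts in the results below was not tested.

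Of the 31 genes, 30 passed the filter. The exception was PPARGC1A, the coactivator of PPARA best known from muscle and liver, with 1 count in control replicate 3, 1 in CoCl2 replicate 3 and none in the other 7 libraries. A gene was called when its adjusted p was below 0.05 and its log2 fold change exceeded 1 in either direction. With CoCl2, 10 of the 30 genes (33.3%) were called, where 43.2% of all tested genes were. ACSL3 and ACADVL rose (2 of 30, against 19.9% of all genes), and SLC27A2, SLC27A4, CPT2, ACADM, ACADS, HADH, DECR1 and EHHADH fell (8 of 30, against 23.4%). With OD, 2 of the 30 genes were called against 13.3% of all genes, CPT1A as higher, where 9.09% of all genes were, and EHHADH as lower, where 4.16% were. By the adjusted p alone, 24 genes differed with CoCl2 (83.2% of all tested genes did) and 21 with OD (65.6% of all did). Of these, 6 were higher and 18 lower with CoCl2, where 40.4% of all genes were higher and 42.8% lower, and 5 were higher and 16 lower with OD, where these shares were 32.3% and 33.3%. The median log2 fold change of the 30 genes was -0.45 with CoCl2 and -0.13 with OD, beside -0.049 and -0.01 for all tested genes. Both comparisons share the control libraries. The treated libraries lay wholly above or below those of control for 26 of the 30 genes with CoCl2 and for 20 with OD, beside 83.4% and 68% of all tested genes. They were lower for 18 and higher for 8 genes with CoCl2, where 42.9% and 40.5% of all genes were, and lower for 15 and higher for 5 with OD, where 34.3% and 33.7% of all were. As in any bulk sample, fewer cells that express a gene and less of its RNA per cell cannot be told apart. With library size as the only scaling, 16 genes passed with CoCl2 in place of 10, of which 15 were lower and 1 higher. The median of the 30 genes was then -0.95. Of all tested genes, 48.1% passed with this scaling, of which 23.9% were higher, and the median of all was -0.55.

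**Figure D1:**
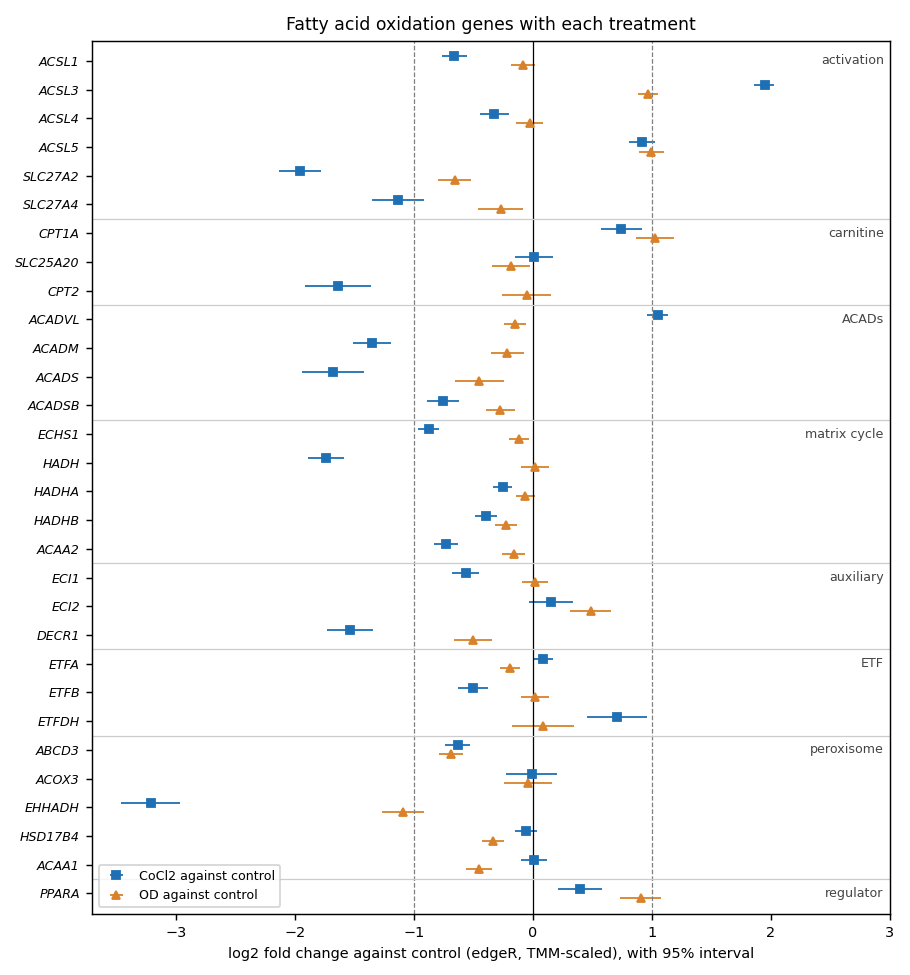
Log2 fold change against control of the 30 tested genes (horizontal axis), in the order of the pathway, with CoCl2 (squares) and OD (triangles). Bars are 95% intervals from the edgeR fit and dashed lines mark a log2 fold change of 1 in size. EHHADH lies farthest to the left with both treatments, at -3.21 and -1.09, and ACSL3 farthest to the right with CoCl2, at 1.95, while with library size alone SLC25A20, ECI2, ETFA, ACAA1 and PPARA change side with CoCl2 and ACSL4 and ACOX3 with OD.

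The promoters of 6 genes are shown, since they stand for the different responses: ACSL3 and ACADVL, which rose with CoCl2, CPT1A, which rose with OD, HADH and SLC27A2, which fell with CoCl2, and HADHB, which shares its promoter with HADHA. The sequences are from RefSeq on GRCh38.p14, 250 bases before to 50 after the start site, and were found for 27 of the 31 genes. Capitals in the first 5 mark matches on either strand to ACGTG or GCGTG, the core to which HIF binds, or to AGGTCA, the hexamer that PPARA and related receptors bind.
ACSL3 promoter, chr2:222860786-222861085, plus strand: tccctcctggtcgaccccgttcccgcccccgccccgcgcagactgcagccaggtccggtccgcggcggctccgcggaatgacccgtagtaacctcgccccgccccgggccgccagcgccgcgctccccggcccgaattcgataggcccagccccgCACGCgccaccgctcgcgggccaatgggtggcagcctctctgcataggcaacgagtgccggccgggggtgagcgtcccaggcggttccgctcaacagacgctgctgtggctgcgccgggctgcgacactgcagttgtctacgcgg
CPT1A promoter, chr11:68844228-68844527, minus strand: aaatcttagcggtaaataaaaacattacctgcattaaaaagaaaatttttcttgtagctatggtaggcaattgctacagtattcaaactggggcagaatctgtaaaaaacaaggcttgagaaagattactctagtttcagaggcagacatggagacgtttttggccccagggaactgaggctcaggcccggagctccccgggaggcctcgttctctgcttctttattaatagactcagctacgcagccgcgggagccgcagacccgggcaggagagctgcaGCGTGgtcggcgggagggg
ACADVL promoter, chr17:7216875-7217174, plus strand: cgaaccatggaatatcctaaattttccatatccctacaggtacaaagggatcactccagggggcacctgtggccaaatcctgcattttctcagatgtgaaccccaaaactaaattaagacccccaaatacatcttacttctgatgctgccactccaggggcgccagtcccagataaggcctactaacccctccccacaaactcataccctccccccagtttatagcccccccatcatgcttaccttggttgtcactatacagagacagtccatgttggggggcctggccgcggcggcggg
HADH promoter, chr4:107989639-107989938, plus strand: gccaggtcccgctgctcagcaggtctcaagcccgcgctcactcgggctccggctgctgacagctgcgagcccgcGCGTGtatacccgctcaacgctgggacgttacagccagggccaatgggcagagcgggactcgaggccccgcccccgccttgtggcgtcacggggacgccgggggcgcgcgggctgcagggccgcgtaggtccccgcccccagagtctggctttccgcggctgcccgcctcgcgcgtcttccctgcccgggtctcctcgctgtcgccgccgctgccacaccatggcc
SLC27A2 promoter, chr15:50181946-50182245, plus strand: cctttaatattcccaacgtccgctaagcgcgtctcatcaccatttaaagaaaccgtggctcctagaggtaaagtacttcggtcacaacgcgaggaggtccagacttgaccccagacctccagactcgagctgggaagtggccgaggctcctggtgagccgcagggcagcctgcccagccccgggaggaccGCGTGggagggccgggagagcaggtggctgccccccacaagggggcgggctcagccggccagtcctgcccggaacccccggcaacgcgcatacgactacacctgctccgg
A match to ACGTG or GCGTG stood in 17 of the 27 promoters (63.0%), beside 48.4% of the 27305 promoters of the table, and overlapping matches were counted apart. All 17 held GCGTG, beside 36.3% of all promoters, and 2 held ACGTG (ETFB and PPARGC1A), beside 21.6%. A single window was used for each symbol, so other start sites of a gene were not searched. The window of PPARGC1A (chr4:24472856-24473155) lies outside the GENCODE coordinates of that gene (chr4:23755041-23904089). The hexamer AGGTCA stood in 1 promoter, that of ACSL5 (3.7% against 13.9% of all), and its direct repeat with 1 base between the copies, to which PPARA binds with its partner RXR, in none, beside 0.022% of all promoters. Counted from the start site, the match lies at position -95 in ACSL3, -176 in HADH, -60 in SLC27A2 and 32 in CPT1A, so that rising and falling genes both hold one, and the ACADVL window holds none. These matches are letters in a window, not bound sites. The shares were not matched for GC content, which was 48.3% (ETFB) to 85.7% (PPARA) in the 27 windows. In the next sequence the capitals mark the 194 bases (chr2:26244689-26244882) that also belong to the promoter of HADHA, which is read in the other direction from a start site 307 bases away.
HADHB promoter, chr2:26244689-26244988, plus strand: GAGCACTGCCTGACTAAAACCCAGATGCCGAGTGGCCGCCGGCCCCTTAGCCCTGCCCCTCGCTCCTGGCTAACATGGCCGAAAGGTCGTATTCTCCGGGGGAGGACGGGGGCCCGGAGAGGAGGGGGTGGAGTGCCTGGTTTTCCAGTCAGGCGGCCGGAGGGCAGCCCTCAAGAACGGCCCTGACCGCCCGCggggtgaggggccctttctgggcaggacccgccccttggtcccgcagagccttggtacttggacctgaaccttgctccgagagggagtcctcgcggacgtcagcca

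The acyl-CoA synthetases moved apart. ACSL3, a synthetase of the endoplasmic reticulum and of lipid droplets (chr2:222860942-222944639, plus strand), had 189, 206 and 208 CPM in the control libraries, 805, 779 and 745 with CoCl2 and 385, 394 and 398 with OD. The 3 groups did not overlap, with CoCl2 highest and control lowest. Against control, ACSL3 rose by a log2 fold change of 1.95 with CoCl2 (standard error 0.0423, adjusted p = 3.81e-47). With OD the log2 fold change of 0.96 (standard error 0.0418, adjusted p = 5.99e-30) was just under the threshold, and CoCl2 was 0.98 above OD on the log2 scale (adjusted p = 4.95e-32). ACSL5, a synthetase of mitochondria and endoplasmic reticulum that is abundant in intestine, had 42.7, 40.4 and 39.8 CPM in control cells, 77.6, 78.9 and 76.2 with CoCl2 and 84.2, 83.0 and 77.7 with OD. Both treatments lay above control without overlap and overlapped each other. ACSL5 had log2 fold changes of 0.92 with CoCl2 (adjusted p = 4.71e-24) and 0.996 with OD (adjusted p = 1.41e-25), the latter close enough to the threshold to pass it under several alternatives (1.04 with library size alone), and the difference between the treatments had a 95% interval of -0.18 to 0.025. ACSL1, an isoform tied to fat burning in heart, was at 78.7 to 87.9 CPM in control cells, 51.9 to 53.8 with CoCl2 and 76.4 to 83.0 with OD. It was lower with CoCl2 by a log2 fold change of -0.66 (adjusted p = 1.27e-17), whereas with OD the groups overlapped (-0.079, adjusted p = 0.159). ACSL4, which prefers arachidonic acid, had a log2 fold change of -0.32 with CoCl2 (adjusted p = 2.31e-06) and -0.03 with OD (adjusted p = 0.69).

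Per kb of transcript, ACSL3 held 41.5% to 45.5% of the summed level of ACSL1, ACSL3, ACSL4 and ACSL5 in control cells, 74.2% to 75.2% with CoCl2 and 54.0% to 56.1% with OD. The share of ACSL1 was 25.8% to 29.0% in control cells, 7.55% to 7.78% with CoCl2 and 16.2% to 17.3% with OD. These shares are formed within a library, so the scaling between libraries does not enter them. Of all counts on the 31 genes, ACSL3 took 8.18% to 9.16% in control cells, 29.1% or more with CoCl2 and 16.9% to 17.4% with OD. The summed level of the 31 genes was 2261 to 2308 CPM in control cells, 2513 to 2594 with CoCl2 and 2258 to 2317 with OD. Without ACSL3 and ACADVL, which were set aside after their values were seen, it was 1915 to 1973, 1462 to 1510 and 1735 to 1794 CPM. As a share of all counts without any scaling, the 31 genes took 0.252% to 0.255% in control cells, 0.199% to 0.202% with CoCl2 and 0.259% to 0.266% with OD, so the direction of their sum with CoCl2 turned with the scaling.

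SLC27A2 and SLC27A4 encode fatty acid transport proteins that also activate very long chains. SLC27A2 had 28.8, 31.03 and 30.4 CPM in control cells, 7.28, 8.28 and 7.81 with CoCl2 and 18.4, 19.2 and 19.9 with OD. The groups were fully apart, with CoCl2 lowest. It fell with CoCl2 (log2 fold change -1.95, standard error 0.086, adjusted p = 1.57e-30), was lower with OD by -0.66 (adjusted p = 9.58e-13), and was lower with CoCl2 than with OD by -1.30 (adjusted p = 1.52e-20). Of its exonic bases, 19.9% are shared with ATP8B4 on the other strand. SLC27A4 had 28.2 to 35.0 CPM in control cells, 11.5 to 16.3 with CoCl2 and 23.7 to 28.5 with OD. Its log2 fold change with CoCl2 was -1.13 (standard error 0.106, adjusted p = 3.75e-10), and -0.997 without CoCl2 replicate 1, which ended the call. With OD the libraries overlapped those of control cells (-0.27, adjusted p = 0.0126).

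In the carnitine shuttle, the first step rose with OD and the last step fell with CoCl2. CPT1A (chr11:68754620-68844410, minus strand), the outer-membrane transferase that limits the entry of long chains, had 12.1, 10.8 and 11.4 CPM in control cells, 18.0, 19.7 and 19.7 with CoCl2 and 22.8, 22.4 and 24.9 with OD. Every treated library lay above every control library, and those with OD lay above those with CoCl2. It rose with OD (log2 fold change 1.03, standard error 0.08, adjusted p = 5.62e-18), while with CoCl2 the log2 fold change was 0.74 (standard error 0.0858, adjusted p = 7.82e-12), and the difference of CoCl2 from OD was -0.29 (adjusted p = 0.000465). The call with OD rested on a value next to the threshold and was lost, at 0.989 each, without OD replicate 3 or control replicate 2. CPT2, the inner-membrane transferase that returns the acyl group to coenzyme A, had only 161 to 188 counts in control cells, 38 to 60 with CoCl2 and 154 to 212 with OD. In CPM these were 8.66, 9.22 and 9.26 in control cells, 2.36, 3.25 and 3.15 with CoCl2 and 9.63, 8.30 and 8.20 with OD. CPT2 fell with CoCl2 (log2 fold change -1.63, standard error 0.137, adjusted p = 4.74e-17), while OD overlapped control (-0.052, 95% interval -0.26 to 0.15). Of the exonic bases of CPT2, 12.4% are shared with genes on the other strand. SLC25A20, the carnitine carrier between them, had log2 fold changes of 0.01 with CoCl2 (95% interval -0.15 to 0.17) and -0.18 with OD (adjusted p = 0.0403), and the former was -0.50 with library size alone. The ratio of CPT1A to CPT2 counts within a library was 1.18 to 1.39 in control cells, 6.05 to 7.61 with CoCl2 and 2.37 to 3.04 with OD.

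**Figure D2:**
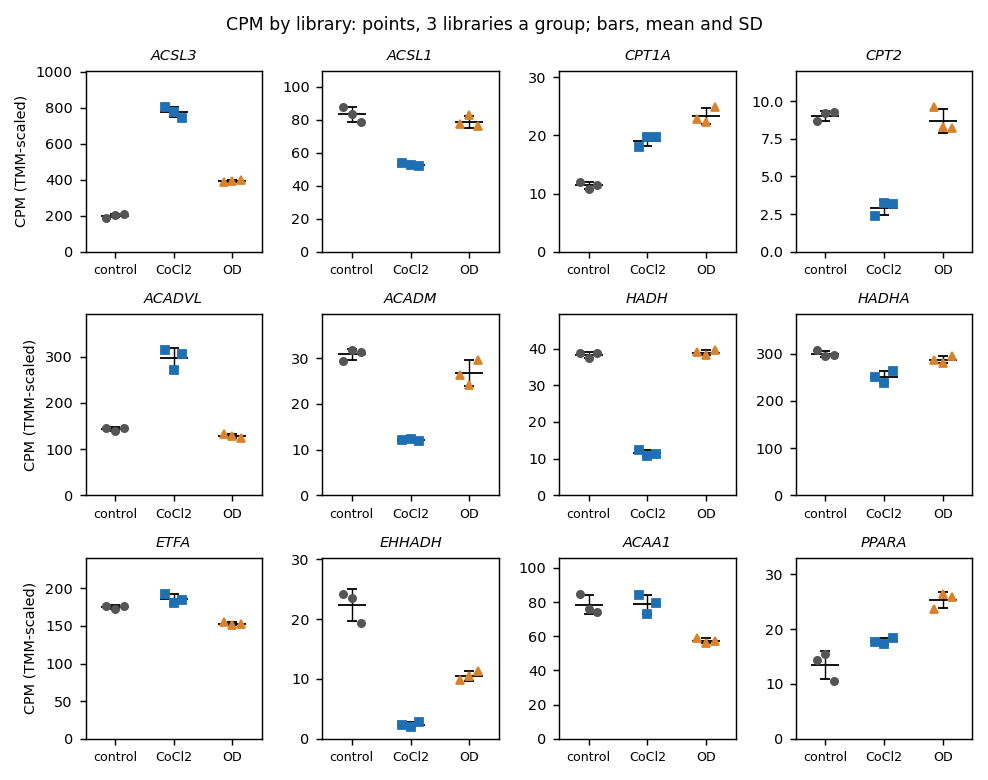
CPM (vertical axes, from 0) of 12 genes in each of the 9 libraries, by condition, with black bars for the mean and SD of 3 libraries. ACSL3 and ACADVL sit highest with CoCl2, at 745 to 805 and 272 to 314 CPM, EHHADH, HADH, CPT2 and ACADM sit lowest there, and PPARA and CPT1A sit highest with OD.

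Among the chosen acyl-CoA dehydrogenases, which take the first step of the cycle, ACADVL rose with CoCl2 and ACADM, ACADS and ACADSB were lower. ACAD9, another acyl-CoA dehydrogenase, is from the further genes listed by hand below and was named after its value was seen. It fell from 46.4 CPM in control cells to 11.95 with CoCl2 (log2 fold change -1.96, adjusted p = 1.99e-33). Whether the direction follows the chain length was not tested. ACADVL, the very-long-chain dehydrogenase of the inner membrane (chr17:7217125-7225266, plus strand), had 146, 140 and 145 CPM in control cells, 314, 272 and 306 with CoCl2 and 133, 129 and 124 with OD. The CoCl2 libraries lay above all others. It rose with CoCl2 by a log2 fold change of 1.05 (standard error 0.0449, adjusted p = 3.09e-31) and was slightly lower with OD (-0.15, adjusted p = 0.00286). The direction held under every scaling tried, but the rise fell below the threshold with upper-quartile factors (0.95), without a count filter (0.99) and with library size alone (0.55). ACADM, the medium-chain dehydrogenase whose deficiency is the most common disorder of the pathway, had 29.4 to 31.7 CPM in control cells, 11.9 to 12.4 with CoCl2 and 24.2 to 29.7 with OD. ACADS, the short-chain enzyme, had 9.37 to 12.4 CPM in control cells, 3.09 to 3.71 with CoCl2 and 7.68 to 8.70 with OD. Both fell with CoCl2, ACADM by a log2 fold change of -1.35 (standard error 0.0812, adjusted p = 1.18e-23) and ACADS by -1.68 (standard error 0.13, adjusted p = 1.49e-18), and both were lower with CoCl2 than with OD (-1.14 and -1.23). ACADSB, which acts on short branched chains, had log2 fold changes of -0.76 with CoCl2 (adjusted p = 4.21e-16) and -0.27 with OD (adjusted p = 8.26e-05). The ratio of ACADVL to ACADM counts was 4.4 to 4.95 in control cells, at most 25.9 and at least 22 with CoCl2, and 4.19 to 5.34 with OD.

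All 5 enzymes of the rest of the mitochondrial cycle were lower with CoCl2 at an adjusted p under 0.05, as were 42.8% of all tested genes, but by unequal amounts. HADH (chr4:107989714-108035241, plus strand), the soluble matrix dehydrogenase of short and medium chains, had 38.8, 37.4 and 38.8 CPM in control cells, 12.4, 10.8 and 11.2 with CoCl2 and 39.0, 38.2 and 39.6 with OD. Only the CoCl2 libraries stood apart, and they lay below the others. HADH fell with CoCl2 by a log2 fold change of -1.74 (standard error 0.0749, adjusted p = 5.4e-31), while with OD it was at 0.021 (95% interval -0.097 to 0.14). HADHA and HADHB, the subunits of the trifunctional protein that carries long chains through the same reactions at the membrane, were far less changed. HADHA had 295 to 307 CPM in control cells, 239 to 264 with CoCl2 and 280 to 295 with OD, with log2 fold changes of -0.25 with CoCl2 (adjusted p = 1.17e-07) and -0.062 with OD (adjusted p = 0.178). HADHB had 135 to 138 CPM in control cells, 101 to 108 with CoCl2 and 113.1 to 122.5 with OD, with log2 fold changes of -0.39 (adjusted p = 1.63e-11) and -0.23 (adjusted p = 1.21e-05). ECHS1, the short-chain enoyl-CoA hydratase, and ACAA2, the mitochondrial thiolase, had log2 fold changes of -0.88 and -0.73 with CoCl2 (adjusted p = 1.73e-27 and 4.96e-21) and -0.11 and -0.16 with OD (adjusted p = 0.0164 and 0.00218). The ratio of HADHA to HADHB counts was 2.19 to 2.22 in control cells, 2.32 to 2.49 with CoCl2 and 2.41 to 2.53 with OD. Both treatments lay above control without overlap, 1.1-fold with CoCl2 and 1.12-fold with OD. A role of the overlapping promoter windows shown above in this ratio was not tested. The ratio of HADH to HADHA was 0.127 to 0.131 in control cells, 0.0425 to 0.0497 with CoCl2 and 0.134 to 0.137 with OD.

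Of the auxiliary enzymes, which prepare unsaturated chains for the cycle, DECR1, the mitochondrial dienoyl-CoA reductase, had 18.1 to 18.8 CPM in control cells, 5.93 to 6.73 with CoCl2 and 12.7 to 13.6 with OD. It fell with CoCl2 (log2 fold change -1.53, standard error 0.097, adjusted p = 1.28e-22) and was lower with OD by -0.50 (adjusted p = 1.23e-07). The isomerases ECI1 and ECI2 differed. ECI1, which is mitochondrial, had log2 fold changes of -0.56 with CoCl2 (adjusted p = 9.33e-14) and 0.02 with OD (adjusted p = 0.76). ECI2, found in mitochondria and peroxisomes, had 0.15 with CoCl2 (adjusted p = 0.127, and -0.35 with library size alone) and 0.49 with OD (adjusted p = 1.1e-06). For ECI2, 29.8% of the exonic bases are shared with genes on the other strand, and the counting tool's use of strand is not given in the sources used here.

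The genes of the electron transfer flavoprotein, which passes electrons of the dehydrogenases to ubiquinone, had log2 fold changes within 1 in all 3 comparisons under TMM scaling. ETFA, the alpha subunit, had 172 to 177 CPM in control cells, 181 to 193 with CoCl2 and 152 to 155 with OD, with log2 fold changes of 0.087 with CoCl2 (adjusted p = 0.0509, and -0.42 with library size alone) and -0.19 with OD (adjusted p = 4.92e-05). ETFB, its partner subunit, had 44.9 to 53.5 CPM in control cells, 32.2 to 36.4 with CoCl2 and 47.9 to 50.6 with OD, with log2 fold changes of -0.50 (adjusted p = 2.02e-10, and -1.01 with library size alone, which gained a call) and 0.022 (adjusted p = 0.765). ETFDH, the oxidoreductase that hands the electrons on, had 76 to 96 counts in control cells, 108 to 137 with CoCl2 and 95 to 110 with OD. In CPM it had 4.09, 4.71 and 5.16 in control cells, 7.403, 8.358 and 7.184 with CoCl2 and 4.86, 4.88 and 5.06 with OD, and the CoCl2 libraries lay above the rest, with a log2 fold change of 0.71 (standard error 0.126, adjusted p = 9.47e-07). The ratio of ETFA to ETFB counts was 3.31 to 3.85 in control cells, 5.07 to 5.98 with CoCl2 and 3.01 to 3.24 with OD.

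**Figure D3:**
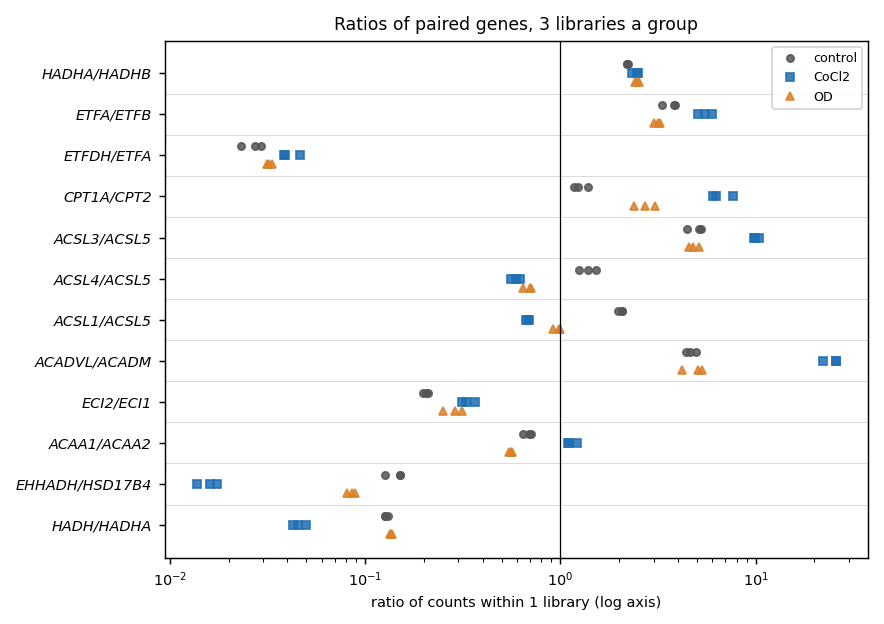
Ratio of the counts of 2 genes within each library (horizontal log axis) for 12 pairs, with 3 libraries each of control (circles), CoCl2 (squares) and OD (triangles). CPT1A/CPT2 and ACADVL/ACADM lie farthest to the right of control with CoCl2, at up to 7.61 and 25.9. EHHADH/HSD17B4 lies farthest to the left, at 0.0137 to 0.0174. HADHA/HADHB spans 2.19 to 2.53 over all 9 libraries, with both treatments above control.

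The peroxisomal genes held the largest fall among the 30 genes with either treatment, that of EHHADH. EHHADH (chr3:185190624-185281990, minus strand) encodes the peroxisomal bifunctional enzyme of straight chains, a classical PPARA target. It had 450, 479 and 344 counts in the control libraries, 38, 26 and 52 with CoCl2 and 215, 235 and 214 with OD. In CPM these were 24.2, 23.5 and 19.3 in control cells, 2.36, 2.01 and 2.73 with CoCl2 and 9.76, 10.4 and 11.4 with OD. The 3 groups were fully apart, in the order control, OD and CoCl2. EHHADH was 9.26-fold lower with CoCl2 (log2 fold change -3.21, standard error 0.125, adjusted p = 2.01e-33) and 2.13-fold lower with OD (-1.09, standard error 0.087, adjusted p = 1.72e-17), and the treatments differed by -2.12 (adjusted p = 1.37e-21). Of its exonic bases, 5.78% are shared with the antisense gene EHHADH-AS1. HSD17B4, the other bifunctional enzyme, which also serves branched chains and bile acid precursors, had 152 to 161 CPM in control cells, 146 to 157 with CoCl2 and 118 to 134 with OD. Its log2 fold change was -0.054 with CoCl2 (95% interval -0.14 to 0.038) and -0.33 with OD (adjusted p = 2.56e-09). The ratio of EHHADH to HSD17B4 counts was therefore 0.127 to 0.151 in control cells, 0.0137 to 0.0174 with CoCl2 and 0.0809 to 0.0886 with OD. ABCD3, a transporter of the peroxisomal membrane, was lower with both treatments, at -0.63 with CoCl2 (adjusted p = 1.31e-16) and -0.69 with OD (adjusted p = 5.53e-18), and between the treatments the 95% interval was -0.049 to 0.17. ACAA1, the peroxisomal thiolase, had 74.4 to 84.7 CPM in control cells, 72.7 to 84.0 with CoCl2 and 56.0 to 58.7 with OD, so the OD libraries alone lay below control (-0.45, adjusted p = 5.11e-11), while with CoCl2 its log2 fold change was 0.0099 (95% interval -0.098 to 0.12), or -0.50 with library size alone. Of its exonic bases, 21.2% are shared with other genes, among them DLEC1, but only 1.45% with genes on the same strand. ACOX3, a peroxisomal acyl-CoA oxidase, had 8.04 to 9.42 CPM over all 9 libraries, with 95% intervals of -0.22 to 0.21 with CoCl2 and -0.24 to 0.17 with OD. By the adjusted p alone, 2 of the 5 peroxisomal genes were lower with CoCl2, where 42.8% of all tested genes were, and 4 with OD, where 33.3% were, around medians of -0.054 and -0.45, beside -0.53 and -0.13 for the 18 genes of the mitochondrial steps. This difference between the routes was not tested.

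The receptor PPARA (chr22:46150521-46243755, plus strand) had 14.4, 15.4 and 10.5 CPM in control cells, 17.6, 17.3 and 18.4 with CoCl2 and 23.7, 26.4 and 25.9 with OD. Its treated libraries lay above those of control, and those with OD above those with CoCl2. PPARA differed from control by a log2 fold change of 0.91 under OD (standard error 0.0848, adjusted p = 3.42e-14) and of 0.40 under CoCl2 (standard error 0.0933, adjusted p = 0.000114), and the latter turned to -0.11 with library size alone. Control replicate 3 was the lowest of its group for PPARA and for EHHADH.

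In the direct comparison, 8 of the 30 genes were called, against 41.3% of all tested genes. By TMM and edgeR, ACADVL alone was called higher with CoCl2 than with OD (log2 difference 1.20, adjusted p = 2.83e-34), where 17.5% of all genes were, and SLC27A2, CPT2, ACADM, ACADS, HADH, DECR1 and EHHADH were called lower, where 23.8% were. HADH and CPT2 differed only between CoCl2 and the other groups, with -1.76 (adjusted p = 1.69e-31) and -1.58 (adjusted p = 1.32e-16). DECR1, at -1.03, lost its call with DESeq2 (-0.99) and without CoCl2 replicate 3 (-0.97). ACSL3, at 0.98, gained a call as higher with DESeq2 (1.03) and without CoCl2 replicate 3 (1.02), and SLC27A4 one as lower without that replicate (-1.01). By the adjusted p alone, 27 genes differed (83.5% of all tested genes did), of which 7 had the higher level with CoCl2 and 20 with OD, where 40.2% and 43.2% of all genes had. The libraries of the treatments were likewise fully apart for 27 genes, beside 83.8% of all, with CoCl2 higher in 7 (40.3% of all) and lower in 20 (43.5%). The 3 without a difference at this threshold were ACSL5, ABCD3 and ACOX3. With library size as the only scaling, 15 genes passed, all of them lower with CoCl2. Of all tested genes, 46.3% passed with this scaling, of which 18.3% were higher with CoCl2, and the median of all was -0.598.

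**Figure D4:**
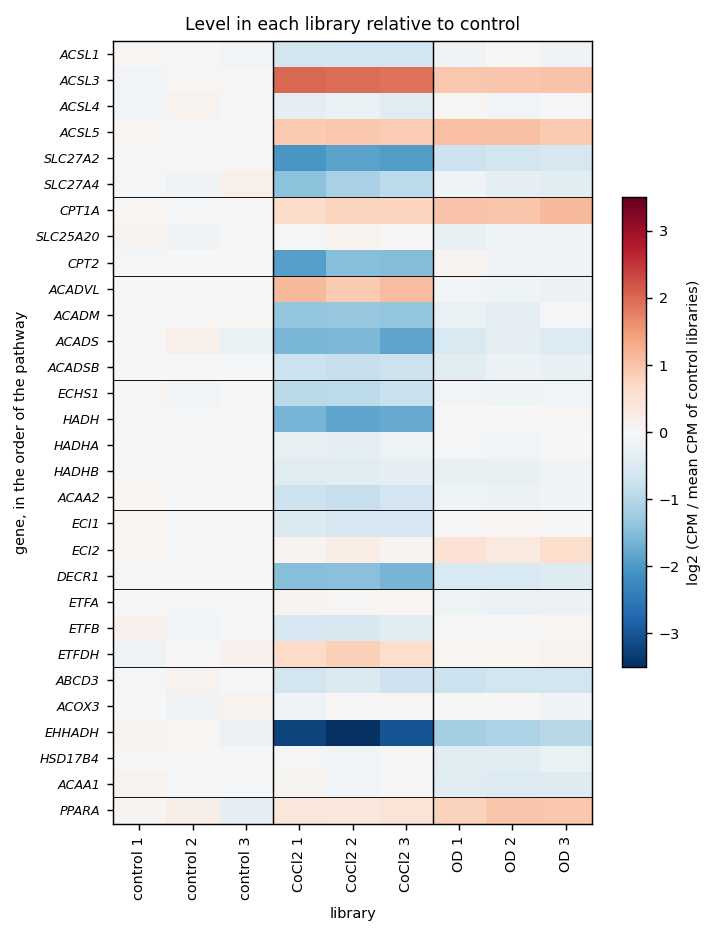
Log2 of the CPM of each of the 30 tested genes over its mean in control cells (colour, red higher and blue lower), with 1 column for each of the 9 libraries and genes in the order of the pathway. The 3 libraries of a condition look alike, the CoCl2 columns hold the strongest colours, and EHHADH, from 2.01 to 2.73 CPM with CoCl2, is the darkest row.

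Within each library, 12 ratios of paired genes were formed, which no scaling between libraries can move. The groups did not overlap for all 12 with CoCl2 against control, for 10 with OD against control and for 10 between the treatments. The levels of single genes were apart for 83.4%, 68% and 83.8% of all tested genes in these comparisons. Ratios of other gene pairs were not formed, so the counts of ratios have no share to stand beside. With 3 libraries against 3, the exact two-sided permutation test cannot go below p = 0.1, and over the 36 comparisons the smallest adjusted p was 0.113. The ratio of CPT1A to CPT2 was 5.23-fold higher with CoCl2 and 2.13-fold higher with OD than in control cells. The ratio of ACADVL to ACADM was 5.25-fold higher with CoCl2, and with OD it overlapped control (1.04-fold). The ratios of ACSL4 and ACSL1 to ACSL5 were lower with both treatments, at 0.425 and 0.335 of the control ratio with CoCl2 and 0.494 and 0.475 with OD. The ratio of the thiolases ACAA1 and ACAA2 was 1.67-fold higher with CoCl2 and 0.819 of control with OD.

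Levels of different genes were compared as CPM per kb of the MANE Select transcript. In control cells ECHS1 was highest, at 201 ± 9.69 CPM per kb (SD, n = 3), followed by HADHA at 102 ± 2.12, ETFA at 76.5 ± 1.24, HADHB at 68.1 ± 0.911 and ACADVL at 65.7 ± 1.54, and no library of ACADVL reached those of HADHB. PPARA at 1.33 ± 0.255, ETFDH at 1.5 ± 0.173 and CPT1A at 2.18 ± 0.117 were lowest among the tested genes, and the first pair did not differ beyond their spread. With CoCl2 the order of the highest genes was ACSL3 at 139 ± 5.4, ACADVL at 136 ± 10.2 and ECHS1 at 109 ± 5.98 CPM per kb, where ACSL3 and ACADVL overlapped. ACSL3 had been at rank 12 in control cells, at 36.0 ± 1.9, and reached rank 3 with OD, at 70.4 ± 1.14. EHHADH was lowest of the tested genes with CoCl2, at 0.623 ± 0.0941, from 5.87 ± 0.697 in control cells.

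**Figure D5:**
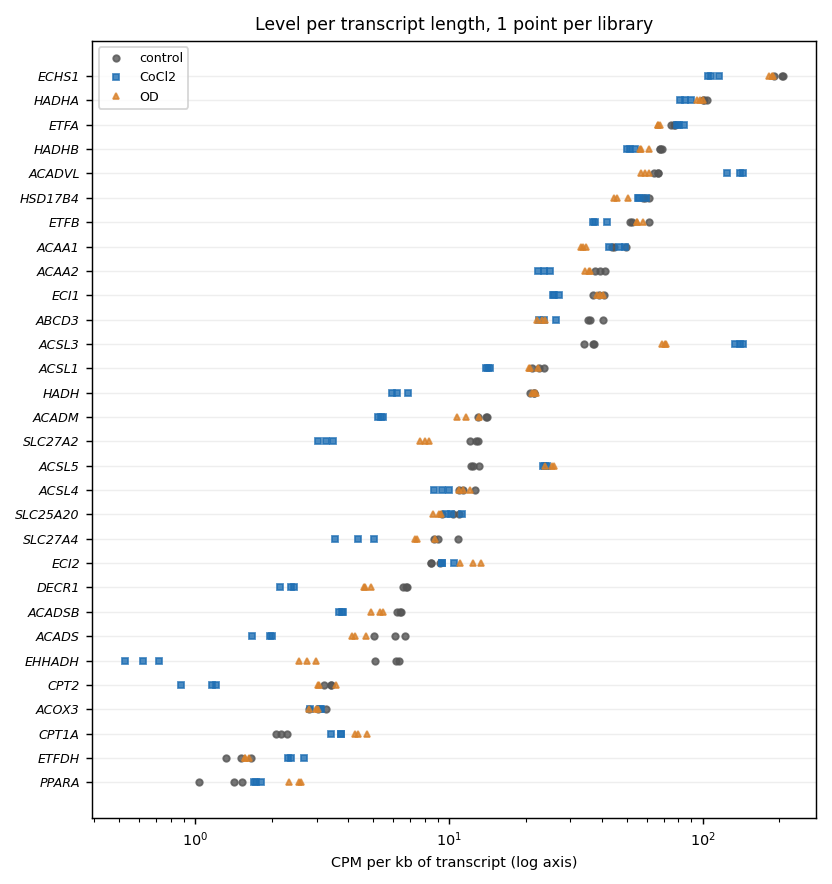
CPM per kb of transcript (horizontal log axis) of the 30 tested genes in each of the 9 libraries, ordered by the mean in control cells. ECHS1 is highest in control cells at 201 CPM per kb, and ACSL3 moves from 36.0 in control to 70.4 with OD and 139 with CoCl2.

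Further genes of the pathway, listed by hand, were read in the same fit, on TMM-scaled values only. The counts of called genes stand beside 19.9% of all tested genes called higher and 23.4% called lower with CoCl2, and 9.09% and 4.16% with OD. Of 34 other genes of fatty acid oxidation, 27 were tested, and with CoCl2 2 rose and 15 fell (63.0% called, against 43.2% of all), around a median of -1.15. The largest falls were those of AMACR, the racemase of branched chains, from 14.4 CPM in control cells to 2.36 (log2 fold change -2.63), SLC27A5, a bile acid and fatty acid synthetase, at -2.27, and CRAT, the carnitine acetyltransferase, at -2.18. SLC27A5 had few counts, 46, 51 and 41 in control cells and 10, 3 and 11 with CoCl2 (standard error 0.292). Those that rose were SLC27A1, a fatty acid transporter, at 1.14 and HACL1, the lyase of peroxisomal alpha-oxidation, from 30.4 to 102 CPM, the latter named after its value was seen. With OD, SLC27A1 (1.85) and ACACB (1.18), the carboxylase whose product inhibits CPT1A, rose. By the adjusted p alone 7 of the 27 genes were higher and 11 lower with OD, where 32.3% and 33.3% of all tested genes were. ACACB differed in sign between the treatments, at 10.6 CPM in the control group, 4.16 under CoCl2 and 24.1 under OD.

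Of 15 partner and coactivator genes of the PPAR receptors, 14 were tested. With CoCl2 2 of them rose and 2 fell (28.6% called, against 43.2% of all), around a median of -0.117. With CoCl2, PPARGC1B, the coactivator related to PPARGC1A, was at 7.09 CPM against 31.7 in control cells (log2 fold change -2.16), SIRT3, a mitochondrial deacetylase, fell by 1.43 on the log2 scale, and SIRT1, a nuclear deacetylase, rose by 1.66. With OD, 7 genes of this list were higher and 1 lower by the adjusted p alone, where 32.3% and 33.3% of all tested genes were. The log2 fold changes of all 14 lay between -0.70 and 0.97. Of 17 PPARA targets outside the pathway, 11 were tested. FABP1, a fatty acid binding protein, was at 31.1 CPM in the control group, 5.13 under CoCl2 and 41.0 under OD, and fell with CoCl2 (log2 fold change -2.59). In this list 2 genes rose and 4 fell with CoCl2 and 5 rose and 1 fell with OD, with medians of -0.31 and 0.93, and with OD the largest called changes at a mean of at least 1 CPM over the 9 libraries were the rises of TXNIP, a regulator of glucose uptake (1.76), CREB3L3, a transcription factor of lipid metabolism (1.48), and CIDEC, a lipid droplet protein (1.14). In the control, CoCl2 and OD groups, TXNIP was at 42.5, 68.9 and 144.6 CPM, CREB3L3 at 2.585, 2.115 and 7.248 and CIDEC at 5.16, 10.2 and 11.4. Below that level, ANGPTL4, an inhibitor of lipoprotein lipase named after its values were seen, had 2, 2 and 1 counts in the control libraries, 11, 5 and 14 with CoCl2 and 33, 43 and 33 with OD.

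The 24 genes of fatty acid synthesis and lipid storage were all tested, with 6 risen and 7 fallen with CoCl2. With OD 7 rose, and by the adjusted p alone 16 were higher and 7 lower, where 32.3% and 33.3% of all tested genes were. PLIN2, a coat protein of lipid droplets that also stands among the PPARA targets, was at 59.9 CPM in the control group, 187 under CoCl2 and 128 under OD. PNPLA2, the adipose triglyceride lipase, rose with both treatments (2.06 with CoCl2 and 1.38 with OD). With OD, LPIN1, a phosphatidate phosphatase, rose by 1.54 and HILPDA, an inhibitor of that lipase, by 1.37. LPIN1 was at 20.7 CPM in the control group, 65.2 under CoCl2 and 60.1 under OD, and HILPDA at 10.0, 11.7 and 25.8. DGAT2, which makes triglyceride, fell with CoCl2 (log2 fold change -2.08). Of 16 peroxisome biogenesis genes, 2 rose and 5 fell with CoCl2 and 1 rose with OD. PEX11A, which acts in peroxisome division, was at 4.61 CPM in the control group, 25.4 under CoCl2 and 13.2 under OD, while PEX10, a subunit of the import machinery, was at 9.75, 1.80 and 6.34 CPM.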

How the data were processed

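Messenger RNA of uCaco-2 cells was sequenced from stranded poly(A) libraries with single-end 75-nucleotide reads. The authors checked reads with FastQC 0.11.9, trimmed adapters with cutadapt 2.10, mapped them on GRCh38.p13 with STAR 2.7.5b and deposited raw counts per GENCODE gene symbol. The counting tool, its strand setting and its treatment of multi-mapping reads are not given in the sources used here. Each of the 9 columns matched a sample title.

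The deposited counts were scaled by TMM and filtered (filterByExpr, 15944 of 60591 symbols left) with edgeR 4.0.16 under R 4.3.3. A single robust quasi-likelihood model with a mean for each condition gave 3 comparisons, with p-values adjusted after Benjamini and Hochberg over all symbols tested. Calls needed an adjusted p below 0.05 and a log2 fold change beyond 1 in either direction, as in the study, which used DESeq2. This and other scalings, filters and left-out replicates were alternatives. The members and lists were chosen with earlier results of these data known. All 31 members are named, with at most 3 called genes per other list and comparison at a mean of at least 1 CPM, and others where a sentence says so or where markers are described.

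Gene coordinates, exon overlaps and transcript lengths came from GENCODE 44 on GRCh38 by symbol, and promoters from RefSeq on GRCh38.p14. Library totals of 15998136 to 24209427 counts gave standard errors of 0.0413 for HADHA and 0.137 for CPT2 with CoCl2 on the log2 scale. Replicates differed beyond sampling noise (chi-square per degree of freedom 1.82 to 3.32) and were kept apart. Of the steps, only the edgeR comparison of CoCl2 with control was tried on simulated counts. These held far fewer changed genes than were called here and no matching shift in composition. The scaling, the ratios, the shares and the motif counts were therefore not tested by it. The values of 1 gene of the other lists are not reported here.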

Additional observations from a re-analysis of the deposited data

How the results depend on the processing

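The medians of the members kept their direction in all alternatives run. Leaving out single replicates gave 9 to 10 calls with CoCl2, 2 to 3 with OD and 8 to 9 between the treatments, and medians of -0.48 to -0.399, -0.165 to -0.0987 and -0.437 to -0.396. With library size alone, the calls were 16 with CoCl2, 4 with OD and 15 between the treatments, beside 48.1%, 13.4% and 46.3% of all genes. The medians with CoCl2 and between the treatments were then -0.952 and -0.957, beside -0.554 and -0.598 for all genes. Upper-quartile factors gave medians of -0.546 and -0.542, beside -0.149 and -0.185 for all genes. The adjusted p alone gave 24, 21 and 27 calls, beside 83.2%, 65.6% and 83.5% of all genes. With glmTreat, which tests against a log2 fold change of 1, 8 genes passed with CoCl2 and 7 between the treatments, beside 33.8% and 31.8%. With OD it gave 0 (0 also at an unadjusted p under 0.05), where 6.05% of all genes passed and DESeq2 called 3 members (12.6% of all genes).

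Small log2 fold changes changed sign. With library size alone, those with CoCl2 were -0.495 for SLC25A20, -0.354 for ECI2, -0.419 for ETFA, -0.496 for ACAA1 and -0.107 for PPARA, those with OD 0.0129 for ACSL4 and 0.00162 for ACOX3, and those between the treatments -0.354 for SLC25A20, -0.266 for ETFA, -0.488 for ABCD3, -0.515 for ACOX3, -0.265 for HSD17B4 and -0.0853 for ACAA1. Upper-quartile factors gave -0.0898 for SLC25A20, -0.0129 for ETFA and -0.0905 for ACAA1 with CoCl2, 0.00441 for ACSL4 with OD, and -0.073 for ABCD3 and -0.101 for ACOX3 between the treatments. For ACOX3 with CoCl2, RLE factors gave 0.0419 and DESeq2 0.041. At least 10 counts in every library gave -0.0183 for SLC25A20 and -0.0188 for ACAA1 with CoCl2 and -0.0232 for ACOX3 between the treatments. No count filter gave -0.0544, -0.0552 and -0.0347 for these, and -0.00825 for ABCD3 between the treatments. The 6 libraries compared gave -0.00275 for SLC25A20 and -0.00389 for ACAA1 with CoCl2. Over left-out replicates the signs changed within -0.033 to 0.0694 for ACAA1, -0.073 to 0.0438 for ACOX3 and -0.0598 to 0.0629 for SLC25A20 with CoCl2, within -0.0998 to 0.016 for ACOX3, -0.0669 to 0.0379 for ACSL4, -0.0212 to 0.0717 for ECI1, -0.0308 to 0.119 for ETFB and -0.000232 to 0.0445 for HADH with OD, and within -0.00983 to 0.0827 for ACOX3 between the treatments. The log2 ratio differences that changed sign were those of HADHA/HADHB between the treatments (-0.0495 to 0.00232) and of ACADVL/ACADM (-0.0134 to 0.162) and ACSL3/ACSL5 (-0.103 to 0.0176) with OD. Beyond the scaling, the cause was not tested.

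With the replicate number as a block, the calls were 10 with CoCl2, 2 with OD and 8 between the treatments, and no member changed its call or sign. Same-numbered libraries deviated from their group means with correlations of -0.0293 to 0.0935, and 2 of 9 libraries correlated best with their own number. Whether same-numbered samples were cultured or prepared together is not given in the sources used here, and these correlations cannot settle it. Depth limits CPT2, ETFDH, EHHADH and ACADS most, with 26 to 110 counts in some libraries.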
